A study of Homo sapiens with 30 samples.

Results

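The genes described here serve HLA class I antigen presentation: the heavy chains HLA-B, HLA-C, HLA-E and HLA-F, the light chain B2M, the peptide transporter subunits TAP1 and TAP2, the loading factor TAPBP (tapasin) and the transactivator NLRC5. They were chosen by name from the Ensembl identifiers of the files, with earlier results of these data known. All 9 were found among 60675 genes in the miR-1 overexpression table and among 58051 genes in the MPC1 knockout table, and all 9 passed the filter on low counts in both. Ribosomal-RNA-depleted RNA was sequenced from 3 established lines of human acute myeloid leukemia (AML). The overexpression (OE) series compared a GFP lentivirus expressing a MIR1-2 host gene sequence (OE) with the empty vector (EV), in Molm-14 and MV4-11. The knockout (KO) series compared a lentiviral CRISPR construct against MPC1, a subunit of the mitochondrial pyruvate carrier, with EV, in THP-1 as well as in the same pair of lines. The OE vector and the KO construct both carried GFP. Each of the 10 groups had 3 libraries, 12 in the OE series and 18 in the KO series, with no age, dose or time label. The labels do not say whether the libraries of a group came from separate cultures, so the p-values measure only the spread between these libraries. The KO rested on 1 guide, so the guide and the loss of MPC1 cannot be told apart.

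A class I molecule is a heavy chain folded with beta-2 microglobulin around a short peptide, and it shows that peptide to CD8+ T cells and natural killer cells. Peptides cut by the proteasome enter the endoplasmic reticulum through the TAP1-TAP2 transporter, where tapasin holds empty class I molecules beside the transporter and favours tightly bound peptides. NLRC5 is a transactivator of class I heavy chain, B2M, TAP1 and immunoproteasome genes, and interferons raise most of this group through IRF and STAT factors. In leukemia cells, the class I level bears on how visible the cell is to T cells.

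Of the 9 genes, 7 lie on chromosome 6 within the major histocompatibility complex, among them HLA-B (31353872 to 31367067), HLA-C (31268749 to 31272130), HLA-E (30489509 to 30494194) and TAP1 (32845209 to 32853816). B2M lies on chromosome 15 (44711358 to 44718851) and NLRC5 on chromosome 16 (56989485 to 57083531) of GRCh38. RefSeq promoter windows of GRCh38.p14, running from 250 bases before to 50 after an annotated start, matched 7 of the 9 genes with 8 windows, and HLA-E and NLRC5 had no entry. An IRF motif, searched on both strands as GAAANNGAA or GAANNGAAA, which can overlap each other, was present in a window of each of the 7 genes and in 7 of the 8 windows. The same letters occurred in 14.45% of all 35116 windows of that length. The stretches from 200 to 41 bases before the start are shown for the heavy chains, B2M and TAP1 because these genes are followed most closely in the values, with the IRF motif letters in capitals.
HLA-B, chr6:31357220-31357379, minus strand: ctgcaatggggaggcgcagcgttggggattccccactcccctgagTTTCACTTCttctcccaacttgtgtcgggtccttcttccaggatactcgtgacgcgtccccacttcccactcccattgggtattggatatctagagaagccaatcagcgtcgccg
HLA-C, chr6:31272133-31272292, minus strand: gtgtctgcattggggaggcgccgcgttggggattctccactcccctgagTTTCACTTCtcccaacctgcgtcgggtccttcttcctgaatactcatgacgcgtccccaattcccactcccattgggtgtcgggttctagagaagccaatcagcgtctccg
HLA-F, chr6:29723234-29723393, plus strand: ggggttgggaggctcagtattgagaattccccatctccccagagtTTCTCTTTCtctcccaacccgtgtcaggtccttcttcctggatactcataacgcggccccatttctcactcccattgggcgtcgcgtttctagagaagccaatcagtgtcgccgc
B2M, chr15:44711317-44711476, plus strand: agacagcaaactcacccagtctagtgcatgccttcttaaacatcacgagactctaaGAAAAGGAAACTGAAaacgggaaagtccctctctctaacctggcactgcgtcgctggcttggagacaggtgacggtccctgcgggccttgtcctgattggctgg
TAP1, chr6:32853745-32853904, minus strand: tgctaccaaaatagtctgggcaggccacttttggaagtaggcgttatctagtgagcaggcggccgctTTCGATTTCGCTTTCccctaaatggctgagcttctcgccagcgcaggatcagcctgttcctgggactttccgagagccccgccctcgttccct
The first motif base stood at position -155 for HLA-B, -151 for HLA-C and -155 for HLA-F, counted from the annotated start, and these 3 matches lay on the strand opposite to the gene. In B2M, matches began at -144 and -138 on the gene's own strand, and in TAP1 at -133 and -127 on the opposite strand. The CRE core letters TGACG, searched on both strands and present in 24.55% of all windows, were found at -106 in HLA-B, -105 in HLA-C, -75 in B2M and -35 in TAP2. A CCAAT box (CCAAT, both strands, 34.61% of all windows) was found in the windows of HLA-B, HLA-C, HLA-F, B2M and TAP1. A kappaB motif (GGNNTTNCC, both strands, 17.13% of all windows) occurred in HLA-B at -176, in TAP1, TAPBP and B2M, and not in the windows of HLA-C, HLA-F or TAP2. These are matches of letters in the reference genome, not measured sites, and the alleles of the lines were not read.

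Library totals were 15543301 to 20939985 counts in the OE series and 5339360 to 9106478 in the KO series. The mitochondrial share was 2.72% to 4.34% and 0.14% to 0.452%. The tables were tested separately, and no level is compared between them. The label checks held: the precursor host gene MIR133A1HG had 34 to 73 counts in the OE libraries and 0 in the EV libraries, which allows up to 3 counts a library, and mean MPC1 was 44.2% of EV in MV4-11 KO, 48.4% in Molm-14 KO and 55.8% in THP-1 KO. The 6 myeloid markers were detected in all libraries (lowest 5.33 CPM, MPO), and the 12 markers of lymphoid, erythroid, epithelial and stromal cells did not exceed 1.99 CPM. CPM stands for counts scaled to 1e+06 reads of the TMM-adjusted library. Values are called below when the edgeR false discovery rate (FDR) over all genes tested was under 5%.

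Levels can be ordered only per length, here as CPM per kilobase of annotated exon, a union over isoforms that includes long 3' ends. B2M was first in each of the 5 EV groups and HLA-F last. In the KO series B2M stood at 304.7 ± 34.8 CPM per kb in MV4-11 EV, 267.3 ± 23.9 in Molm-14 EV and 503.2 ± 75.4 in THP-1 EV (SD, n = 3). HLA-B was the highest of the heavy chains and next after B2M in MV4-11 EV and THP-1 EV, at 126.1 ± 8.26 and 85.7 ± 4.64 CPM per kb, but it was below HLA-E and HLA-C in Molm-14 EV at 44.6 ± 2.98 (SD, n = 3). That place in Molm-14 EV depends on the length used, as 30.74% of the exon bases of HLA-B are shared with the pseudogene DHFRP2. In CPM, not divided by length, HLA-B (mean 206) was above HLA-E (179) and HLA-C (135) in this group. In Molm-14 EV, HLA-E (57.4 to 64.0 CPM per kb) and HLA-C (51.1 to 57.5) overlapped, and in THP-1 EV HLA-E and HLA-C, TAP1 and TAPBP, and NLRC5 and TAP2 were neighbours that overlapped. Per kb, TAP1 stood above TAP2 in all 5 EV groups, but in CPM only in those of the KO series. In the OE series, mean CPM of TAP2 was above that of TAP1 in MV4-11 EV (39.4 against 24.3) and Molm-14 EV (51.9 against 29.5). In the EV groups of the OE series, the only neighbours per kb that overlapped were B2M and HLA-B in MV4-11.

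**Figure D1:**
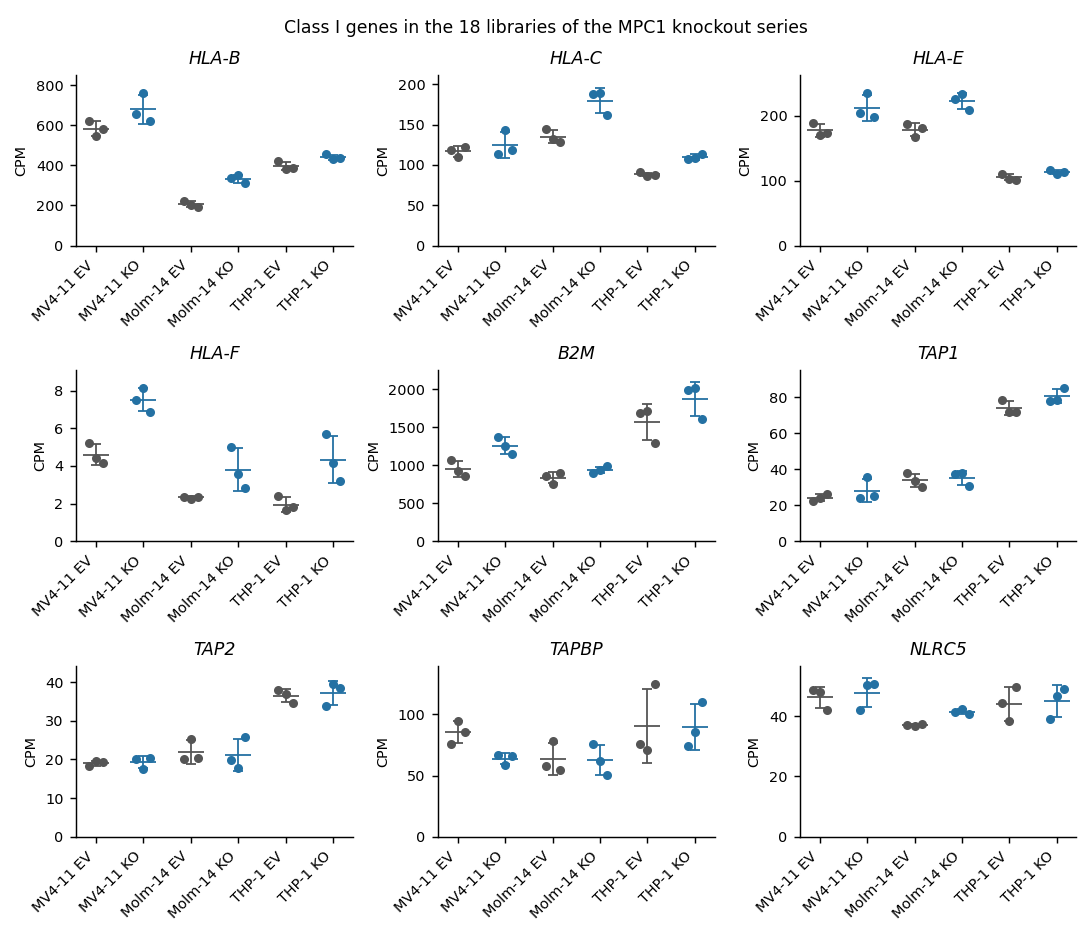
Levels of the 9 genes in CPM (linear axes from 0) in the KO series, with EV in grey and KO in blue; points are libraries, horizontal bars means and error bars SD (n = 3). HLA-B was 194 to 221 CPM in Molm-14 EV and 313 to 353 CPM in Molm-14 KO, and TAP1 exceeded 71 CPM in every THP-1 library.

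Molm-14 MPC1 KO cells had more HLA-B, HLA-C and HLA-E RNA than their EV controls. In bulk RNA, a change in the share of cells that express a gene and a change per cell cannot be told apart. Of the 9 genes, these 3 were called, all higher. Of the 14490 genes tested, 1.34% were called higher in this comparison. The median log2 fold change was 0.17 over the 9 genes and 0 over all genes.

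HLA-B, a classical heavy chain that presents peptide to T cells, was measured at 221, 203 and 194 CPM in Molm-14 EV and at 335, 353 and 313 CPM in Molm-14 KO. All KO libraries lay above all EV libraries. The log2 fold change was 0.70 ± 0.083 (SE, 1.62-fold), with an adjusted p of 4.02e-06 in edgeR. HLA-C, a classical heavy chain that is also a main ligand of natural killer cell receptors, was at 144, 132 and 128 CPM in EV and 188, 189 and 162 CPM in KO, again without overlap. The difference was 0.41 ± 0.087 on the log2 scale (adjusted p = 0.00577). HLA-E, which displays leader peptides of other class I chains to NKG2A receptors, was at 187, 168 and 181 CPM in EV and 226, 233 and 209 CPM in KO, and these groups did not overlap. Its difference was 0.32 ± 0.078 (adjusted p = 0.021).

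HLA-F, a non-classical heavy chain, was low, at 14, 20 and 18 counts in Molm-14 EV and 32, 27 and 18 in KO. Its CPM of 2.25 to 2.37 and 2.81 to 5.03 did not overlap, but it was not called (log2 fold change 0.71, 95% interval 0.16 to 1.25, adjusted p = 0.237). The light chain and the loading genes did not pass the test in Molm-14. B2M was at 861, 750.0 and 892 CPM in EV and 901, 932 and 985 CPM in KO, a log2 difference of 0.17 with an interval of -0.05 to 0.40. TAP1 (0.06, interval -0.19 to 0.32), TAP2 (-0.06, -0.33 to 0.21) and TAPBP (-0.02, -0.51 to 0.46) had intervals on both sides of 0. NLRC5 was at 37.1, 36.6 and 37.4 CPM in EV and 41.5, 42.2 and 40.7 CPM in KO. The NLRC5 groups did not overlap, but the difference of 0.16 ± 0.11 was not called (adjusted p = 0.679).

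HLA-B stayed called without any single Molm-14 library (log2 0.65 to 0.75). HLA-C lost its call without Molm-14 KO 2 (adjusted p = 0.0595), and HLA-E without Molm-14 EV 2, EV 3, KO 1 or KO 2 (adjusted p up to 0.160), so that without KO 2 only HLA-B remained called.

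No listed interferon-stimulated gene was called higher in Molm-14 KO by edgeR, and 1 was higher at an unadjusted p under 0.05. Of the 38 of 39 listed genes that were tested, 3 were called lower, against 1.06% of all genes: OAS3, an antiviral 2'-5' oligoadenylate synthetase (log2 -0.97 ± 0.21), HERC5, the ISG15 ligase (-0.62 ± 0.12), and IFITM1, an antiviral membrane protein (-1.61 ± 0.40). On average over the list, log2 CPM was 3.28, 3.19 and 3.34 in EV and 3.00, 3.07 and 3.07 in KO, with no overlap. The median log2 fold change was -0.19 over this list, 0.04 over the regulators and 0.01 over the further pathway genes. Of 21 listed class I regulators, 1 was called: IRF8, a myeloid IRF family factor, rose from a mean of 485 to 867 CPM (log2 0.84 ± 0.083, adjusted p = 1.4e-07). Of 20 further pathway genes, 1 was called, the chaperone calreticulin (CALR), with a log2 fold change of -0.31. Myeloid markers also moved in this comparison, with MPO lower (log2 -1.11 ± 0.10) and LYZ higher (0.96 ± 0.10), and the part of such a shift in the heavy chain values was not tested.

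In MV4-11 KO, 3 of the 9 genes were called, again all higher, but they were B2M, HLA-E and HLA-F. Of the 14490 genes tested, 3.17% were called higher here. The median log2 fold change was 0.22 over the 9 genes and 0.02 over all genes. The mitochondrial share was 0.211%, 0.452% and 0.392% in MV4-11 EV and 0.161%, 0.140% and 0.202% in KO, without overlap. The part of this difference between libraries in the values of the 9 genes was not tested.

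B2M, the invariant light chain, was at 1068, 931 and 854 CPM in MV4-11 EV and 1379, 1250.2 and 1149.9 CPM in KO. Every KO library exceeded every EV library, and the log2 difference was 0.41 ± 0.11 (1.32-fold, adjusted p = 0.0307). HLA-E was at 189, 171 and 173 CPM in EV and 204, 235 and 198 CPM in KO, a difference of 0.26 ± 0.078 (adjusted p = 0.0492). HLA-F rested on few reads, 45, 33 and 27 counts in EV and 53, 65 and 55 in KO, and its CPM of 4.15 to 5.21 and 6.90 to 8.13 did not overlap. Its log2 difference was 0.70 ± 0.21 (adjusted p = 0.0448).

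HLA-B was at 623, 547 and 579 CPM in MV4-11 EV and 654, 761 and 623 CPM in KO, with EV 1 and KO 3 both at 623 CPM, so that the groups met without overlapping. Its difference of 0.22 ± 0.081 was not called (adjusted p = 0.109). HLA-C (log2 0.10, interval -0.08 to 0.28), TAP2 (0.03, -0.25 to 0.30) and NLRC5 (0.05, -0.17 to 0.26) were not called. TAP1 was at 22.1, 24.0 and 26.2 CPM in EV and 24.0, 35.4 and 24.8 CPM in KO, where KO 2 alone stood apart (0.23, interval -0.04 to 0.49). TAPBP was the only gene of the group with a negative difference in MV4-11 KO, at 76.1, 94.7 and 85.9 CPM in EV and 67.0, 58.9 and 65.7 CPM in KO (-0.42, interval -0.90 to 0.06, adjusted p = 0.286).

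The 3 calls in MV4-11 KO sat close to the threshold: 0 genes of the group were called without EV 2, EV 3, KO 1 or KO 2, 2 without KO 3 and 4 without EV 1, and B2M alone was called with no filter on low counts. HLA-E also lost its call with another scaling (adjusted p = 0.0585 with DESeq2's size factors). With only the 2 MV4-11 groups in the fit, HLA-E and HLA-F were not called (adjusted p = 0.135 and 0.0611) and TAPBP was (-0.44, adjusted p = 0.0433). All the differences of B2M, HLA-E and HLA-F kept their sign in these fits.

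Around these genes in MV4-11 KO, 5 of 38 interferon-stimulated genes tested were called, all higher, among them IFITM1 (log2 0.53 ± 0.12), SAMD9L (0.46 ± 0.14), SAMD9 (0.34 ± 0.084) and PARP14 (0.27 ± 0.073). On average over the list, log2 CPM was 2.20, 1.91 and 2.04 in EV and 2.09, 2.32 and 2.10 in KO, which overlapped. The median log2 fold change was 0.17 over this list, 0.08 over the regulators and 0.07 over the further pathway genes. Of 21 regulators, 3 were called higher: IRF1, an interferon-induced activator of class I genes (0.35 ± 0.089), IRF8 (0.27 ± 0.082) and the kinase JAK1 (0.27 ± 0.079). Of 20 pathway genes, PSME2, a subunit of the proteasome activator PA28, was higher (0.26 ± 0.077) and HSPA5, an endoplasmic reticulum chaperone, was lower (-0.93 ± 0.25). Of all genes, 2.24% were called lower in this comparison. The myeloid marker SPI1 was lower (-0.46 ± 0.14).

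In THP-1 KO, 0 of the 9 genes were called in edgeR and 0 in DESeq2, against 0.0897% of all genes tested, while 3 of 9 had an unadjusted p under 0.05, against 8.01% of all genes. These were HLA-F, HLA-C and B2M. HLA-F was at 18, 11 and 10 counts in EV and 37, 28 and 19 in KO, or 1.64 to 2.39 and 3.17 to 5.69 CPM without overlap, a log2 difference of 1.14 (interval 0.57 to 1.71, adjusted p = 0.181). HLA-C was at 90.6, 86.2 and 87.6 CPM in EV and 107, 108 and 114 CPM in KO (0.31, interval 0.13 to 0.50, adjusted p = 0.330). These groups did not overlap either, and the lack of a call is not evidence that the level stayed the same. B2M was at 1694, 1718 and 1299 CPM in EV and 1989, 2014 and 1609 CPM in KO, where EV 3 and KO 3 were the low libraries and the groups overlapped (0.25, interval 0.03 to 0.48).

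HLA-B in THP-1 was at 421, 383 and 385 CPM in EV and 455, 432 and 437 CPM in KO (0.15, interval -0.01 to 0.32). HLA-E (0.11, -0.05 to 0.28), TAP1 (0.12, -0.12 to 0.35), TAP2 (0.03, -0.22 to 0.28) and NLRC5 (0.03, -0.19 to 0.25) were not called. TAPBP varied widely within both THP-1 groups, at 75.5, 70.8 and 125 CPM in THP-1 EV and 73.9, 85.6 and 110.4 CPM in KO, and replicate 3 was the highest of both groups (-0.00, interval -0.48 to 0.48). None of the 20 pathway genes, 21 regulators or 38 interferon-stimulated genes tested was called in THP-1 KO.

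**Figure D2:**
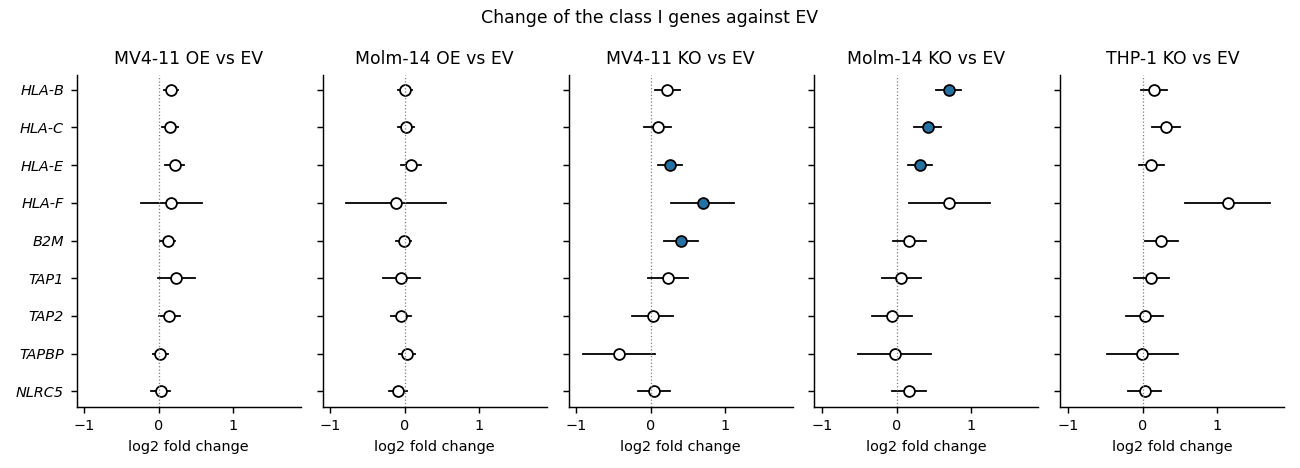
Log2 fold change against EV (x axis, points) with its 95% interval (lines) for the 9 genes in the 5 treatment comparisons; filled points have an FDR under 5%. The filled points are HLA-E, HLA-F and B2M in MV4-11 KO and HLA-B, HLA-C and HLA-E in Molm-14 KO, all to the right of 0.

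The KO effects were compared between lines as differences of log2 fold changes, over all 14490 genes. HLA-B was the 1 gene of the group whose effect differed: the effect in MV4-11 minus that in Molm-14 was -0.48 ± 0.12 (adjusted p = 0.0314), where 1.48% of genes were called, and the effect in Molm-14 minus that in THP-1 was 0.54 ± 0.12 (adjusted p = 0.0163), where 0.766% were called. Between MV4-11 and THP-1, 0 of 9 were called in edgeR and in DESeq2, with 0 of 9 at an unadjusted p under 0.05 and 0.193% of all genes called. For HLA-B that difference was 0.07 with an interval of -0.17 to 0.30. HLA-C was not called between MV4-11 and Molm-14 (-0.32, interval -0.57 to -0.06, adjusted p = 0.217), nor was B2M (0.23, interval -0.08 to 0.55). The same tests called IRF8, whose effect in MV4-11 was lower than in Molm-14 (-0.56 ± 0.12) and whose effect in Molm-14 exceeded that in THP-1 (0.82 ± 0.12).

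The HLA-B difference between MV4-11 and Molm-14 lost its call without MV4-11 EV 1, EV 3, KO 1 or KO 3 or Molm-14 EV 2, EV 3, KO 1 or KO 2 (adjusted p up to 0.126), while the difference ranged from -0.56 to -0.42 over all such fits. The difference between Molm-14 and THP-1 lost it without Molm-14 EV 3, KO 1 or KO 2 or THP-1 EV 1 or KO 2 (adjusted p up to 0.0855). The 3 comparisons of effects share libraries.

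In the OE series the question was whether forced miR-1 changed the same genes. In MV4-11 OE, 0 of 9 were called in edgeR and in DESeq2, where 0.177% of 17542 genes were called, although all 9 differences were positive and 5 had an unadjusted p under 0.05, against 5.90% of all genes. The median log2 fold change was 0.15 over the 9 genes and 0.01 over all genes.

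HLA-B was at 624, 589 and 588 CPM in MV4-11 EV and 654, 700.3 and 657 CPM in OE, so that all OE libraries were higher (0.16, interval 0.06 to 0.26, adjusted p = 0.269). HLA-C was at 252, 238 and 249.5 CPM in EV and 255, 286 and 279.5 CPM in OE, also without overlap (0.15, interval 0.04 to 0.26, adjusted p = 0.491). HLA-E was at 186, 169 and 199.8 CPM in EV and 230.3, 217 and 195 CPM in OE, with OE 3 below EV 3 (0.21, interval 0.08 to 0.34), so the HLA-E groups overlapped. B2M was at 417, 432 and 405 CPM in EV and 476, 434 and 452 CPM in OE, a small gap without overlap (0.12, interval 0.02 to 0.22, adjusted p = 0.682). Every difference in this comparison was below that of HLA-B in Molm-14 KO, which is another line and treatment. In MV4-11 KO, the differences of HLA-B, HLA-C, HLA-E and B2M were 0.22, 0.10, 0.26 and 0.41. The OE and KO effects were not tested against each other.

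MV4-11 OE 1 and EV 3 stood apart from the other MV4-11 libraries in interferon-stimulated genes. The mean log2 CPM of the 37 genes tested was 5.19, 2.21 and 1.83 in OE and 2.14, 1.91 and 3.65 in EV. None of the 37 was called between OE and EV in edgeR, and 1 had an unadjusted p under 0.05. Their median log2 fold change was 0.98, against 0.01 over all genes, and 35 of the 37 were positive. TAP1 was at 36.2 CPM in OE 1 and 25.2 and 24.9 CPM in the other OE libraries, and at 24.2, 26.5 and 22.2 CPM in EV. It was therefore highest in OE 1 but lowest in EV 3, the library with the second highest interferon-stimulated level. TAP2 (46.4 CPM), HLA-E (230.3), B2M (476), HLA-F (7.16) and NLRC5 (96.2) were also highest in OE 1 among the 6 MV4-11 libraries, whereas HLA-B and HLA-C were highest in OE 2 and TAPBP in EV 1. The 8 interferon genes listed had 25 counts in all over the 30 libraries.

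Without OE 1 and EV 3, the TAP1 difference was -0.02 in place of 0.24 and that of NLRC5 was -0.05 in place of 0.02. HLA-C was then called in edgeR (0.21, adjusted p = 0.0394), 1 of 9, with 2 libraries left in each group. Of all genes, 76 were called in that fit, against 31 with all libraries. The part of the interferon-stimulated shift in the class I values was not tested, and leaving out these 2 libraries does not test it.

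**Figure D3:**
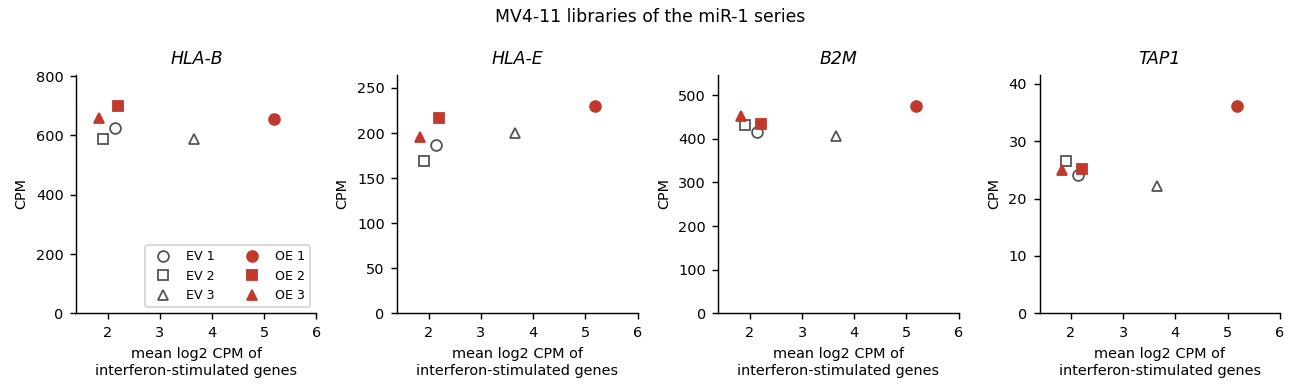
CPM of HLA-B, HLA-E, B2M and TAP1 (y axes, from 0) against the mean log2 CPM of 37 interferon-stimulated genes (x axis) in the 6 MV4-11 libraries of the OE series, with OE filled red, EV open grey and the symbol giving the replicate. OE 1 lies far right at 5.19 with the highest TAP1 at 36.2 CPM, and EV 3 at 3.65 has the lowest TAP1 at 22.2 CPM.

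In Molm-14 OE, 0 of 9 were called in edgeR and in DESeq2, 0 of 9 had an unadjusted p under 0.05, and 0.0057% of all genes were called. HLA-B was at 257, 276 and 276 CPM in EV and 269, 271 and 269 CPM in OE (0.00, interval -0.10 to 0.10). B2M was at 401, 429.9 and 428 CPM in EV and 421, 411 and 417 CPM in OE (-0.01, interval -0.11 to 0.09). Apart from HLA-F, which had 10 to 19 counts a library and an interval of -0.79 to 0.55, the widest interval was that of TAP1, -0.29 to 0.20. The interferon-stimulated mean was 2.62 to 2.80 in EV and 2.75 to 2.89 in OE. The OE effects were not called different between the lines for any of the 9 genes (0 in edgeR and DESeq2, 1 of 9 at an unadjusted p under 0.05, 0.0456% of all genes called). For HLA-B the effect in MV4-11 minus that in Molm-14 was 0.16 with an interval of 0.02 to 0.30.

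**Figure D4:**
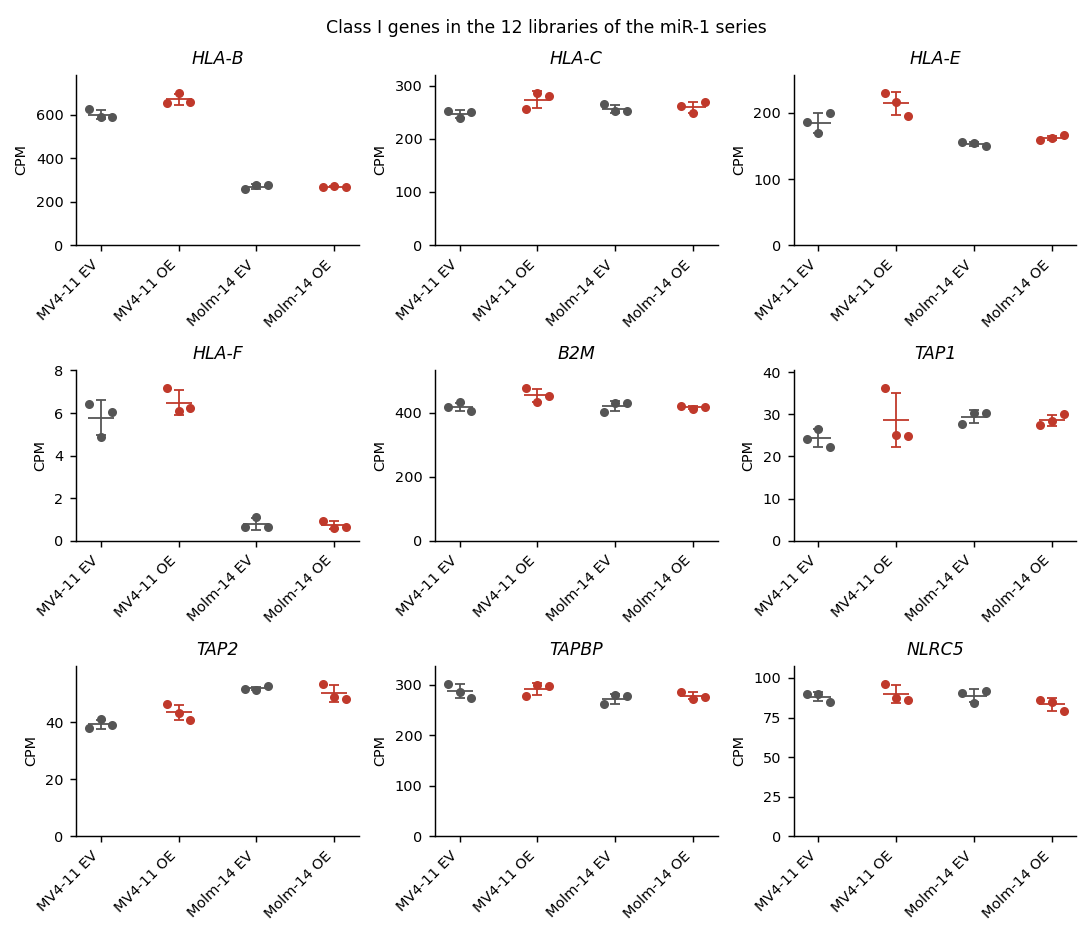
Levels of the 9 genes in CPM (linear axes from 0) in the OE series, with EV in grey and OE in red; points are libraries, horizontal bars means and error bars SD (n = 3). TAP1 reached 36.2 CPM in MV4-11 OE 1, and HLA-F was at most 1.13 CPM in the Molm-14 libraries.

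Between the EV groups of Molm-14 and MV4-11, 5 of 9 genes were called in the OE series, where 64.8% of all genes were called, and 5 of 9 in the KO series, where 61.7% were. Most genes thus differed between the lines, and the count in this group is not above that background. HLA-B was lower in Molm-14 in both series, with a log2 difference of -1.16 ± 0.047 in the OE series (257 to 276 against 588 to 624 CPM) and of -1.50 ± 0.084 in the KO series (194 to 221 against 547 to 623 CPM). HLA-F was lower as well, with a log2 difference of -2.83 ± 0.25 in the OE series and with a fold of 0.502 in the KO series (adjusted p = 0.00122). TAP1 was higher in Molm-14, by 0.28 ± 0.12 (adjusted p = 0.0490) and 0.49 ± 0.13. The remaining calls were not shared: TAP2 (0.40 ± 0.067) higher and HLA-E (-0.27 ± 0.063) lower in the OE series, and HLA-C (0.21 ± 0.088) higher and NLRC5 (-0.32 ± 0.11) lower in the KO series. The TAP1 call in the OE series and the HLA-C call in the KO series were lost with DESeq2's size factors (adjusted p = 0.0510 and 0.0542). Each was also lost in 5 of 6 fits without 1 library, with adjusted p up to 0.154 for TAP1 and 0.166 for HLA-C. The calls stood only without MV4-11 EV 2 for TAP1 and without MV4-11 EV 3 for HLA-C.

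Between THP-1 EV and MV4-11 EV, 7 of 9 genes were called, where 67.5% of all genes were, and between THP-1 EV and Molm-14 EV 7 of 9, where 69.6% were. These counts too are close to the background. TAP1 was 3.09-fold higher in THP-1, at 78.7, 72.0 and 71.9 CPM against 22.1, 24.0 and 26.2 CPM (log2 1.63 ± 0.12). TAP2 (0.94 ± 0.13) and B2M (0.72 ± 0.11) were higher, while HLA-B (-0.56 ± 0.082), HLA-C (-0.40 ± 0.090), HLA-E (-0.76 ± 0.080) and HLA-F (-1.23 ± 0.27) were lower. Against Molm-14, HLA-B (0.95 ± 0.083), B2M (0.91 ± 0.11), TAP1 (1.14 ± 0.12), TAP2 (0.73 ± 0.13) and NLRC5 (0.25 ± 0.11) were higher in THP-1, and HLA-C (-0.61 ± 0.090) and HLA-E (-0.76 ± 0.080) were lower. The NLRC5 call was lost in 5 of 6 fits without 1 library, all but the one without THP-1 EV 2 (adjusted p up to 0.224), and with only these groups in the fit (adjusted p = 0.0507). TAPBP missed the threshold there (0.50, adjusted p = 0.0631) but passed it in DESeq2 (adjusted p = 0.0257).

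**Figure D5:**
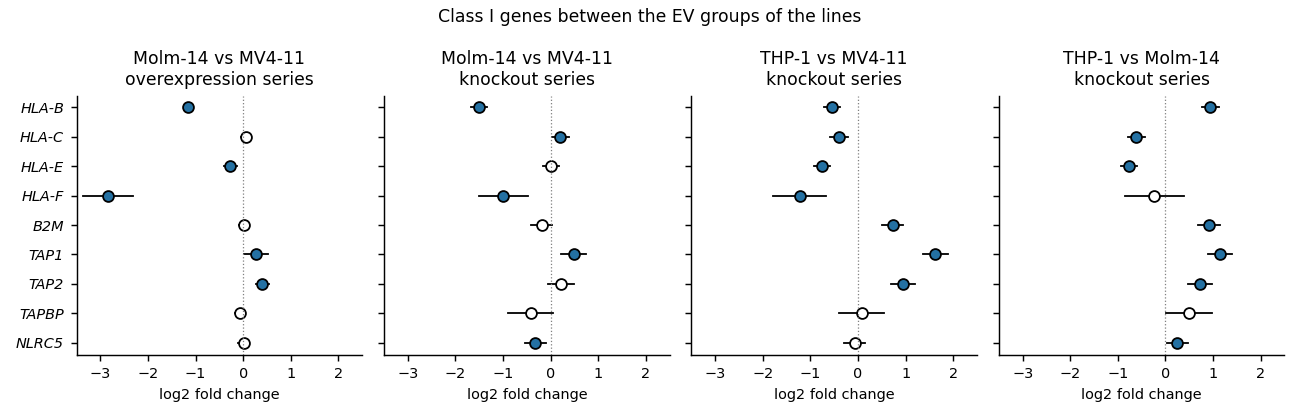
Log2 fold change between EV groups (x axis, points) with its 95% interval (lines) for the 9 genes; positive values are higher in the line named first and filled points have an FDR under 5%. HLA-B is left of 0 in both Molm-14 against MV4-11 panels, and TAP1 is right of 0 in all 4 panels.

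Among the other pathway genes, the immunoproteasome subunit PSMB9 had the same order of lines as its neighbour TAP1, with log2 differences of 0.72 ± 0.11 and 1.29 ± 0.15 between Molm-14 and MV4-11 and 2.11 ± 0.14 between THP-1 and MV4-11. The peptide-trimming aminopeptidase ERAP2 was 136 CPM in Molm-14 EV against 7.15 in MV4-11 EV and 10.2 in THP-1 EV of the KO series, and it was also higher in Molm-14 in the OE series (77.5 CPM, adjusted p = 2.34e-08). In the pathway list of 20, Molm-14 against MV4-11 gave 8 higher and 7 lower in the OE series and 6 higher and 3 lower in the KO series. THP-1 against MV4-11 gave 10 higher and 4 lower, and THP-1 against Molm-14 gave 7 higher and 8 lower. Among the 21 regulators the counts were 7 and 6, 7 and 7, 9 and 6, and 9 and 7 in the same order. Of all genes, 64.8%, 61.7%, 67.5% and 69.6% were called in these comparisons, so calls were as common outside these lists. NFYC, a subunit of the factor that binds CCAAT boxes, was at 683 CPM in THP-1 EV against 51.7 in MV4-11 EV and 35.1 in Molm-14 EV.

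Several of the 9 genes share exon bases with other annotated genes, and whether counting used the strand is not given in the sources used here. In GENCODE release 44, HLA-B shared 30.74% of its exon bases with the pseudogene DHFRP2 and TAP2 19.53% with a same-strand protein-coding gene. On the opposite strand, TAPBP shared 21.01% with a long non-coding RNA, TAP1 14.18% with PSMB8-AS1 and HLA-B 14.51% with a pseudogene. HLA-F shared 15.62% with an opposite-strand pseudogene, 12.4% with HLA-F-AS1 and 5.956% with RPL23AP1. Heavy chain genes are also near-identical in parts and differ between the lines' alleles and the reference. Their levels between lines are therefore uncertain, and so is the order of the heavy chains within a line. A change of a single gene between EV and treated cells of a line compares the same alleles.

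Within groups, the genes did not vary as one block. With the group means removed, HLA-B varied with HLA-C (r = 0.82) and HLA-E (r = 0.90) in the KO series of 18 libraries and showed r = 0.49 with HLA-F, and HLA-C went with TAP1 (r = 0.92), while B2M and TAPBP went in opposite directions (r = -0.82). In the OE series HLA-B and HLA-C showed r = 0.17 over 12 libraries, and B2M went with TAP1 (r = 0.80). The median over the 36 pairs of genes was 0.09 and 0.07. These values describe libraries that share group means, depth and the scaling. The protein-coding genes closest to the mean of the 9 genes, out of 11252 with at least 1 CPM on average in both series, were FCHSD1, CIAO3, CENPM, JUNB and EGFL7 in the KO series (r = 0.88 to 0.91) and GRK4, DDAH2, NPTXR, APOL2 and CCDC113 in the OE series (r = 0.86 to 0.93). None was in both sets of 5. Of the 11252 genes, 0.462% in the KO series and 0.187% in the OE series had r over 0.8, so the named genes are the top of a large search.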

How the data were processed

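Total RNA of THP-1, Molm-14 and MV4-11 cells was sequenced after ribosomal RNA depletion. The authors trimmed reads with cutadapt 1.16, aligned them to GRCh38 with STAR 2.7.6a and deposited raw counts per Ensembl gene from featureCounts 1.6.3 as 2 tables, one a series. The processing notes also name DESeq2 1.30.1. Strand use in counting is not given in the sources used here. Gene names came from GENCODE release 44, which matched 60419 and 56948 identifiers. Genes were filtered with filterByExpr, scaled by TMM and tested with edgeR 4.0.16 (robust quasi-likelihood, R 4.3.3), with all libraries of a series in 1 fit and Benjamini-Hochberg adjustment over 17542 and 14490 genes. Comparisons covered treatment against EV within lines (5), EV between lines (4) and differences of effects (4). DESeq2 1.42.0 and other settings were alternatives. The scripts were tested on simulated data. No pair of replicate libraries agreed within sampling noise (chi-square per degree of freedom 1.50 to 15.8), so all were kept. All 9 genes were described in each comparison. From each gene list up to 4 called genes with the largest change were named, while PSMB9 in the OE series was named after its values were seen. The genes and lists were chosen with earlier results of these data known.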

Additional observations from a re-analysis of the deposited data

Results flagged for a closer look

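The KO effect on HLA-B differed between lines by a test of the difference itself in 2 of 3 pairs of lines. The effect in MV4-11 minus that in Molm-14 was -0.48 on the log2 scale (adjusted p = 0.0314 in edgeR). HLA-B was at 313 to 353 CPM in Molm-14 KO against 194 to 221 CPM in EV, and at 623 to 761 CPM in MV4-11 KO against 547 to 623 CPM in EV, where the lowest KO and the highest EV library were nearly equal. The effect in Molm-14 minus that in THP-1 was 0.54 (adjusted p = 0.0163). Both pairs share the Molm-14 libraries, and HLA-B started lowest in Molm-14 EV. In fits without 1 library, the MV4-11 minus Molm-14 call was lost in 8 of 12. The Molm-14 minus THP-1 call was lost in 5 of 12 such fits.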

How the results depend on the processing

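The 6 calls against EV kept their sign in all 65 alternative fits of these results, and 23 of those fits lost a call. The calls counted without 1 library each ranged from 0 to 4 in MV4-11 KO, 1 to 3 in Molm-14 KO, and 0 to 1 for the KO effects of MV4-11 minus Molm-14 and of Molm-14 minus THP-1. With no filter on low counts, 1 gene was called in MV4-11 KO, where more genes were tested, and the log2 fold changes of HLA-B in Molm-14 OE and TAPBP in Molm-14 KO became -0.0022 and 0.0013. Without MV4-11 OE 1 and EV 3 together, 1 of the 9 genes was called in MV4-11 OE, where 76 of all genes were called. TAP1 and NLRC5 then became -0.016 and -0.052. HLA-E between Molm-14 and MV4-11 EV of the KO series became -0.0061 with DESeq2's size factors, -0.0072 in DESeq2 and -0.030 with those groups alone in the fit. Other sign changes came without 1 library, none of a called value, and the cause was not tested. The log2 ranges, without 1 library each, were -0.0085 to 0.061 for TAPBP, -0.025 to 0.057 for NLRC5 (MV4-11 OE vs EV). They were -0.015 to 0.031 for B2M, -0.020 to 0.047 for NLRC5 (EV Molm-14 vs MV4-11, overexpression series). They were -0.026 to 0.019 for HLA-B, -0.011 to 0.047 for HLA-C, -0.36 to 0.21 for HLA-F, -0.038 to 0.0047 for B2M (Molm-14 OE vs EV). They were -0.0098 to 0.16 for HLA-C, -0.0095 to 0.093 for TAP2, -0.013 to 0.13 for NLRC5 (MV4-11 KO vs EV). They were -0.024 to 0.055 for HLA-E (EV Molm-14 vs MV4-11, knockout series). They were -0.22 to 0.22 for TAPBP, -0.16 to 0.019 for NLRC5 (EV THP-1 vs MV4-11, knockout series). They were -0.023 to 0.12 for HLA-B (the KO effect of MV4-11 minus that of THP-1). They were -0.010 to 0.16 for TAP1, -0.23 to 0.065 for TAP2, -0.18 to 0.16 for TAPBP (Molm-14 KO vs EV). They were -0.015 to 0.098 for TAP2, -0.17 to 0.30 for TAPBP, -0.062 to 0.12 for NLRC5 (THP-1 KO vs EV). Over all lines, replicate numbers did not pair the samples (correlation of same-numbered libraries -0.32 to 0.26 over 15 pairs, 4 highest with their own number). In THP-1, however, each KO library correlated highest with the EV library of its own number (r = 0.14, 0.079 and 0.26). A pairing within THP-1 therefore remains possible. With the replicate as a block, TAPBP in THP-1 KO became 0.017, TAP1 between the EV groups of the OE series lost its call (adjusted p = 0.0633), and no other call changed. The number of all genes called in MV4-11 KO rose to 1474 with the block, and fell from 31 to 15 in MV4-11 OE (68 in DESeq2). Low counts limited HLA-F.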
